A study of Mus musculus with 6 samples.

Results

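The response genes described here are 9 genes that report on TGF-beta signalling (Smad6, Smad7, Tgfbi and Skil) and on the transcription factor pair YAP and TEAD (Ctgf, Cyr61, Ankrd1, Amotl2 and Ajuba). They were selected by gene symbol from a table of 54532 mouse genes, of which 31250 had a read. The 9 symbols each matched 1 protein-coding row. The genes were measured by poly-A RNA-seq in mouse pancreatic buds taken at embryonic day E12.5 and cultured for 2 days in medium with 10% serum and 0.1% DMSO. In 3 libraries, called TBZ, the buds received 0.1 µM tetrabenazine throughout, a drug that blocks VMAT2, the transporter that fills vesicles with monoamines. In the other 3 libraries, called Control, the medium held DMSO alone. The labels name no strain, allele or sex, and they do not say how many buds or litters went into a library, so the p-values cover only the spread among these 6 libraries, which may be technical. A bud holds epithelium, mesenchyme, vessels and mesothelium, and in such bulk RNA fewer cells of a type and less RNA per cell cannot be told apart.

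TGF-beta ligands are released from latent complexes in the matrix and bind paired receptor kinases, which phosphorylate SMAD proteins that enter the nucleus and switch on target genes. Among those targets are the pathway's own brakes, the inhibitory SMADs and the corepressor SnoN. YAP and its relative TAZ are held in the cytoplasm by the Hippo kinases; when the kinases are inactive, as in spread or stretched cells, YAP enters the nucleus and binds DNA through TEAD proteins. In the pancreas YAP is active in progenitors and is lowered as endocrine cells form, and TGF-beta signalling can restrain acinar and, in some settings, endocrine differentiation and drives matrix production. Both routes meet on several genes, Ctgf among them, so the grouping into YAP and TGF-beta response genes names the better known input and not the only one.

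The libraries held 35825033 to 40973254 counted reads in TBZ and 41005819 to 50620936 in Control, and every one of the 9 genes had at least 532 reads in each library. Pdx1, the pancreatic and duodenal transcription factor, was present at 61.8, 62.3 and 64.9 CPM (the read count scaled to library size with the TMM factor) in TBZ replicates 1 to 3 and at 56.8, 46.9 and 39.8 CPM in Control replicates 1 to 3. Libraries differed in genes of the neighbouring foregut: 10 stomach and oesophagus markers summed to 80.2, 127 and 84.6 CPM in TBZ replicates 1 to 3 and to 129, 110.4 and 188 CPM in Control replicates 1 to 3. Control replicate 3 was the highest of the 6.

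Most of the 9 genes had slightly higher values in TBZ buds, and none passed the edgeR test across all genes. The median log2 fold change was 0.15 over the 5 YAP response genes and 0.02 over the 4 TGF-beta response genes; the difference between these was not tested. Without TBZ replicate 1 these medians were 0.11 and -0.0042, and without Control replicate 3 they were 0.14 and -0.014. In the fit without TBZ replicate 2 they were larger, at 0.20 and 0.05. Cyr61 and Ctgf had the largest differences, at about 1.28-fold and 1.27-fold, followed by Smad7 at 1.21-fold. Smad6, Skil and Ajuba differed by 3.17% or less, and Tgfbi was the 1 gene on the lower side. All 9 were among the 18226 genes that passed the filter on low counts. With the edgeR quasi-likelihood test, 0 of the 9 had an adjusted p under 0.05, where 0.187% of all tested genes did and 0.154% did so with higher values in TBZ. At an unadjusted p under 0.05 there were 4, all higher in TBZ (Smad7, Cyr61, Amotl2 and Ctgf), where 5.08% of tested genes were higher at that level. DESeq2 put 1 of them past an adjusted p of 0.05, Cyr61, where it called 1.43% of the genes it tested, 1.1% as higher in TBZ. Without the filter on low counts edgeR called 3 of them, Cyr61, Ctgf and Smad7, all higher in TBZ, where it called 1.42% of genes, 0.842% as higher. The 3 TBZ values lay above the 3 Control values for 4 genes (Cyr61, Ankrd1, Amotl2 and Smad7), as they did for 8.47% of tested genes, and groups were apart in either direction for 15.5%. The log2 fold change was above 0 for 8 of the 9 genes and for 50.1% of tested genes. Its median was 0.14 over the 9 and 0.00031 over all tested genes. Without TBZ replicate 1 the median of the 9 was 0.07, with 7 above 0, and without both TBZ replicate 1 and Control replicate 3 it was 0.05, also with 7 above 0. In the fit without TBZ replicate 2 the median of the 9 was 0.17, with 8 above 0.

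**Figure D1:**
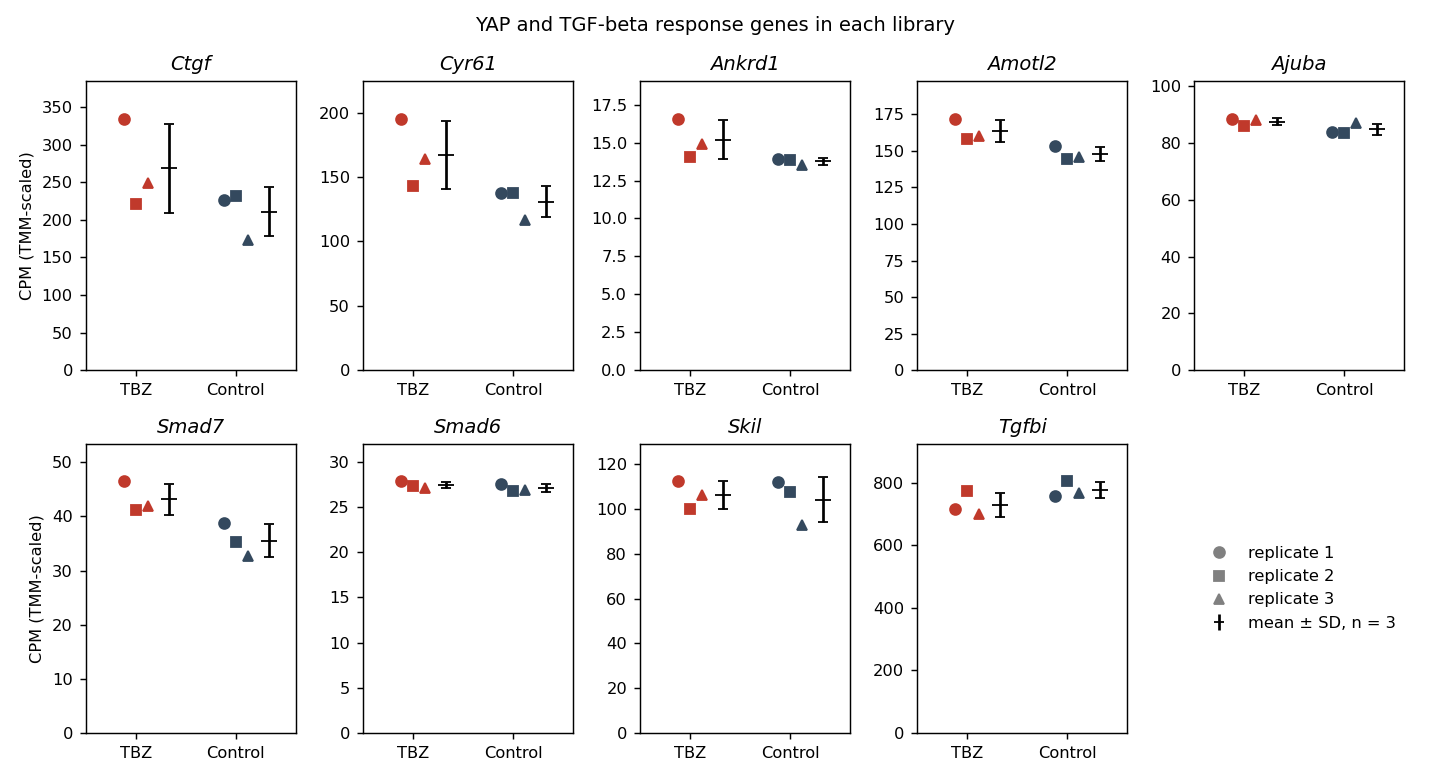
TMM-scaled CPM of the 9 response genes in each library, TBZ on the left and Control on the right of each panel; symbols mark replicates and the bars show mean ± SD (n = 3). Each axis starts at 0. TBZ replicate 1 is the highest library for 8 of the 9 genes, and the groups do not overlap for Cyr61, Ankrd1, Amotl2 and Smad7.

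The promoters of the YAP response genes are shown because TEAD recognition letters lie close to the start site in each one that could be matched. Promoters of 6 of the 9 genes were found in RefSeq (build GRCm38.p6, the mm10 assembly): Smad6, Tgfbi, Cyr61 (named Ccn1 there), Ankrd1, Amotl2 and Ajuba. Ctgf, Skil and Smad7 had no entry in the set of RefSeq promoters used here. Each line runs 5′ to 3′ on the gene's own strand from 250 bases before the start site to 10 bases after it, with the TEAD letters GGAATG, or CATTCC where they lie on the opposite strand, in capitals. The windows are chr3:145649976-145650235 on the minus strand for Cyr61, chr19:36119835-36120094 on the minus strand for Ankrd1, chr9:102717554-102717813 on the plus strand for Amotl2 and chr14:54577652-54577911 on the minus strand for Ajuba. The RefSeq start site of Amotl2 lies inside the span that the deposited table gives for the gene. Those of Ajuba (54577661) and Cyr61 (145649985) lie outside it, upstream of spans that begin at 54577558 and 145649981 on the minus strand. Motif positions count from the RefSeq start sites and would differ from the deposited ones.
Cyr61: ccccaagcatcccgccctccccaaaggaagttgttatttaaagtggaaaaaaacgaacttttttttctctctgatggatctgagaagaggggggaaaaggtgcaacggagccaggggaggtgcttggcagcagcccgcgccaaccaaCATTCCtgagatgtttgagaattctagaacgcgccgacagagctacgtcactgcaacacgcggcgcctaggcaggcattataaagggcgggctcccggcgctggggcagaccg
Ankrd1: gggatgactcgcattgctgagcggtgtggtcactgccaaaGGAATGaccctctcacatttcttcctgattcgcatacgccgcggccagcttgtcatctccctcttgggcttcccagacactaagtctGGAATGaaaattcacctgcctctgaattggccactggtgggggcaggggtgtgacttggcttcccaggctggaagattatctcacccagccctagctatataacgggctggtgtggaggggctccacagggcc
Amotl2: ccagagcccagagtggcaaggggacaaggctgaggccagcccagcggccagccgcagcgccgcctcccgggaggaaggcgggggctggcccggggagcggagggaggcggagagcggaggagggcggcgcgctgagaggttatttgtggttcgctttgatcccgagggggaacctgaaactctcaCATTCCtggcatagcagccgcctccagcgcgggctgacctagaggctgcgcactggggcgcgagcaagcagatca
Ajuba: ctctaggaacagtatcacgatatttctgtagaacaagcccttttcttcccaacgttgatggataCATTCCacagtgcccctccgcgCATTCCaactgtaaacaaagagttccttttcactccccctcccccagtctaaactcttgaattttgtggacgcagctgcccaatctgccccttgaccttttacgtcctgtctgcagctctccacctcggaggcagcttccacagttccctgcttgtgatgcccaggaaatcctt

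The search covered both strands of the full 300 bases in the RefSeq table, which run to 50 bases after the start site, and positions are those of the leftmost base of a match. GGAATG was found at -103 in Cyr61, at -210 and -123 in Ankrd1, at -65 in Amotl2 and at -186 and -164 in Ajuba. Thus 4 of 4 matched YAP response genes held it, and neither Smad6 nor Tgfbi did, where 14.7% of 32851 mouse promoters of that length hold it. A short SMAD motif, CAGAC, occurs in 49.6% of promoters and was found at 4 in Cyr61, at -137 and -127 in Ankrd1, at -56 in Ajuba and at -239 and -85 in Tgfbi. In Ankrd1 the match at -127 shares its last base with the TEAD match at -123. The full palindrome GTCTAGAC, bound by SMAD3 and SMAD4, occurs in 0.213% of promoters and was found at -4 in Smad6, across the start site. A match describes these letters only, and no binding was measured.

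Smad6 is printed for that palindrome, which is in capitals in the window chr9:64022050-64022309 on the minus strand, over the same span of 250 bases before to 10 after the start site.
Smad6: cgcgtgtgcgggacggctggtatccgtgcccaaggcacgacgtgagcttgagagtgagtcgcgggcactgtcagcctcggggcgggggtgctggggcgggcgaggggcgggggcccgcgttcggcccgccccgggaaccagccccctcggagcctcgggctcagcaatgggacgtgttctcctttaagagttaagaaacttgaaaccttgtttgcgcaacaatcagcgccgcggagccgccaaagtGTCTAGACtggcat

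**Figure D2:**
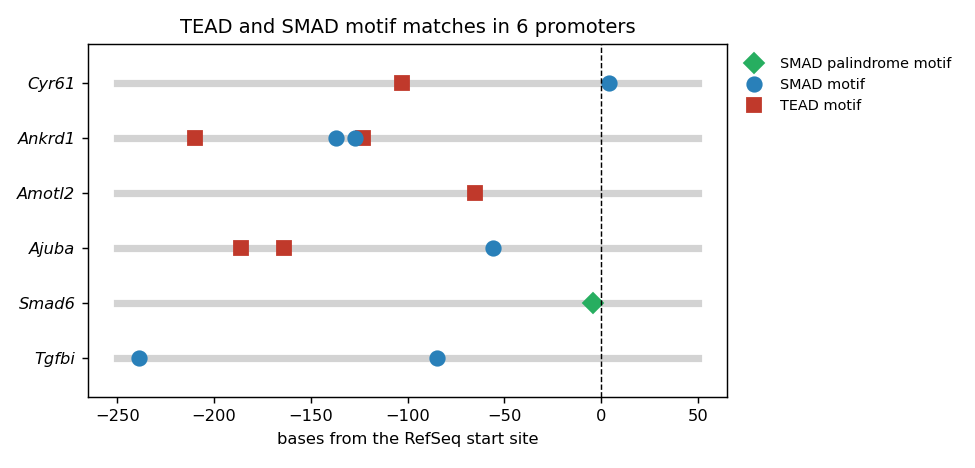
Positions of motif matches in the 6 matched promoters, in bases from the RefSeq start site, for the TEAD letters (squares), the short SMAD letters (circles) and the SMAD palindrome (diamond); grey bars span the 300 bases searched. The 4 YAP response genes carry TEAD matches between -210 and -65, and Smad6 and Tgfbi carry none.

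Ctgf and Cyr61 encode secreted matricellular proteins of the CCN family and are the most widely used readouts of YAP and TEAD. Cyr61 (ENSMUSG00000028195, chromosome 3, 145646976 to 145649981, minus strand, mm10) stood at 195, 143 and 164 CPM in TBZ replicates 1 to 3 and at 137, 138 and 117 CPM in Control replicates 1 to 3. The groups did not overlap, with TBZ replicate 1 highest and Control replicate 3 lowest. Its means were 167 ± 26.4 CPM in TBZ and 131 ± 11.9 CPM in Control (SD, n = 3 each). The log2 fold change was 0.36 ± 0.11 (SE), and its 95% interval ran from 0.12 to 0.60. The edgeR adjusted p was 0.307, and the adjusted p was 0.0283 with DESeq2.

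Ctgf (ENSMUSG00000019997, chromosome 10, 24595442 to 24598683, plus strand) stood at 335, 221 and 249 CPM in TBZ replicates 1 to 3 and at 227, 232 and 173 CPM in Control replicates 1 to 3. Here the groups overlapped, since TBZ replicate 2 lay below Control replicates 1 and 2. The means of 268 ± 59.0 CPM in TBZ and 211 ± 32.8 CPM in Control (SD, n = 3 each) correspond to a log2 fold change of 0.35 ± 0.15 (SE), with a 95% interval from 0.01 to 0.69 and an edgeR adjusted p of 0.506. With DESeq2 the adjusted p of Ctgf was 0.786. Reads of Gm15270, an overlapping transcript on the other strand, summed to 93 over the 6 libraries against 61065 for Ctgf.

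Per length, Ctgf lay slightly above Cyr61 in each of the 6 libraries. The level of Ctgf over that of Cyr61 in FPKM, which corrects for gene length and library size, was 1.21, 1.09 and 1.07 in TBZ replicates 1 to 3 and 1.17, 1.19 and 1.04 in Control replicates 1 to 3. The ranges of this ratio overlapped between the groups, and TBZ replicate 1 was the highest and Control replicate 3 the lowest library for both genes.

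Ankrd1 encodes a nuclear and sarcomeric ankyrin repeat protein of muscle that is also a direct YAP target in other cells. It was found at low levels (ENSMUSG00000024803, chromosome 19, 36111965 to 36119844, minus strand), with 16.6, 14.1 and 14.9 CPM in TBZ replicates 1 to 3 and 13.9, 13.9 and 13.5 CPM in Control replicates 1 to 3. The groups did not overlap, although TBZ replicate 2 was close to the Control libraries. The log2 fold change was 0.14 ± 0.08 (SE), with a 95% interval from -0.04 to 0.33 and an edgeR adjusted p of 0.626. Striated and cardiac muscle markers had low levels too: the 8 summed to 15.6, 12.54 and 12.6 CPM in TBZ replicates 1 to 3 and to between 13.8 and 14.6 CPM in Control. These CPM values are not corrected for gene length, so the level of Ankrd1 was not compared with those of the 8 markers. The highest of them, Actc1, stood at 8.40, 5.03 and 4.91 CPM in TBZ replicates 1 to 3 and at 5.91, 5.84 and 5.51 CPM in Control replicates 1 to 3, and like Ankrd1 it was highest in TBZ replicate 1. Ryr1, Acta1 and Tnnt2 lay between 1.26 and 3.82 CPM, and Myl7, Myh6, Ttn and Myog were under 1 CPM in every library. Of the 7 tested markers in this list 3 had a log2 fold change above 0 and 4 below, with a median of -0.08. For 2 of them all TBZ values lay below all Control values. The part of muscle cells in the level of Ankrd1 was not tested.

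Amotl2 encodes an angiomotin that binds YAP at junctions and is itself switched on by YAP. It stood at 172, 158 and 160.5 CPM in TBZ replicates 1 to 3 and at 153, 144 and 146 CPM in Control replicates 1 to 3 (ENSMUSG00000032531, chromosome 9, 102716672 to 102733418, plus strand). All TBZ values lay above all Control values. The means of 164 ± 7.44 CPM in TBZ and 148 ± 4.69 CPM in Control (SD, n = 3 each) correspond to a log2 fold change of 0.15 ± 0.05 (SE), with a 95% interval from 0.04 to 0.25 and an edgeR adjusted p of 0.353.

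Ajuba encodes a LIM protein that recruits LATS kinases to junctions and so limits their action on YAP. It was the steadiest of the YAP response genes, at 88.5, 86.1 and 88.0 CPM in TBZ replicates 1 to 3 and at 83.8, 83.7 and 87.0 CPM in Control replicates 1 to 3 (ENSMUSG00000022178, chromosome 14, 54567472 to 54577558, minus strand). The groups overlapped through Control replicate 3. Its log2 fold change of 0.05 ± 0.04 (SE) had a 95% interval from -0.05 to 0.14 and an edgeR adjusted p of 0.762.

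Among the TGF-beta response genes, Smad7 was the 1 gene whose groups were apart. Smad7 encodes the inhibitory SMAD that blocks TGF-beta receptors and brings ubiquitin ligases to them, and its gene is induced by the signal it stops. It stood at 46.5, 41.2 and 41.9 CPM in TBZ replicates 1 to 3 and at 38.7, 35.3 and 32.6 CPM in Control replicates 1 to 3 (ENSMUSG00000025880, chromosome 18, 75367529 to 75395935, plus strand). The lowest TBZ library lay above the highest Control library. The means of 43.2 ± 2.85 CPM in TBZ and 35.5 ± 3.06 CPM in Control (SD, n = 3 each) correspond to a log2 fold change of 0.28 ± 0.07 (SE), with a 95% interval from 0.12 to 0.44. Its edgeR adjusted p was 0.231, the smallest of the 9, and its p ranked 292 among the 18226 tested genes. With DESeq2 the adjusted p was 0.0669.

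Smad6, the other inhibitory SMAD, acts mainly on the BMP branch and is induced by BMP as well as TGF-beta signals. It stood at 27.8, 27.4 and 27.1 CPM in TBZ replicates 1 to 3 and at 27.6, 26.8 and 26.9 CPM in Control replicates 1 to 3 (ENSMUSG00000036867, chromosome 9, 63953076 to 64022059, minus strand). The groups overlapped. The 95% interval of its log2 fold change of 0.02 ± 0.05 (SE) ran from -0.10 to 0.13 (edgeR adjusted p = 0.935).

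Skil encodes SnoN, a corepressor that holds SMAD target genes silent and is degraded and then re-induced when TGF-beta acts. Its values were 112, 100.3 and 106 CPM in TBZ replicates 1 to 3 and 112, 108 and 92.9 CPM in Control replicates 1 to 3 (ENSMUSG00000027660, chromosome 3, 31095058 to 31122577, plus strand). The groups overlapped almost whole, with TBZ replicate 1 just above Control replicate 1 and Control replicate 3 lowest. The log2 fold change of 0.03 ± 0.07 (SE) had a 95% interval from -0.13 to 0.19 (edgeR adjusted p = 0.931), and its sign turned in fits without TBZ replicate 1 (-0.015) or without Control replicate 3 (-0.045).

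Tgfbi encodes a secreted matrix protein that binds collagens and integrins and was named for its induction by TGF-beta. It was the most abundant of the 9, at 717, 774 and 700.2 CPM in TBZ replicates 1 to 3 and at 758, 804 and 769 CPM in Control replicates 1 to 3 (ENSMUSG00000035493, chromosome 13, 56609523 to 56639562, plus strand). TBZ replicates 1 and 3 lay below every Control library, and TBZ replicate 2 lay among them. The means of 730.3 ± 38.4 CPM in TBZ and 777 ± 24.3 CPM in Control (SD, n = 3 each) correspond to a log2 fold change of -0.09 ± 0.05 (SE), with a 95% interval from -0.20 to 0.02 and an edgeR adjusted p of 0.594.

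**Figure D3:**
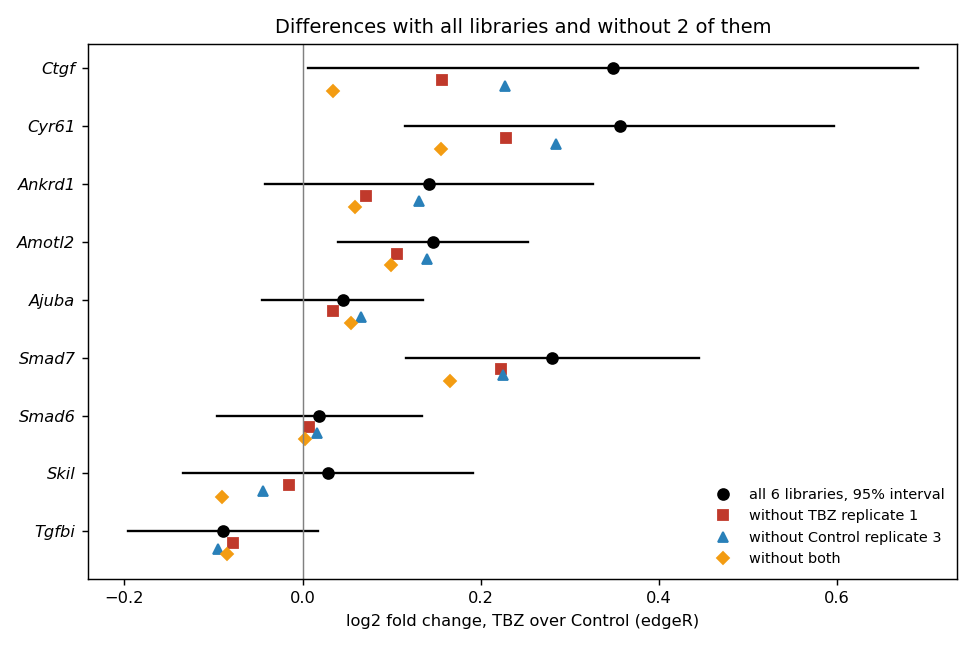
Log2 fold change of TBZ over Control (edgeR) for the 9 genes with all 6 libraries and its 95% interval (circles and lines), and with TBZ replicate 1, Control replicate 3 or both left out. For Ctgf the value is 0.35 with all libraries and 0.03 without both, and the sign turns for Skil. Leaving out both was chosen after the values were seen. Fits without TBZ replicate 2 (Ctgf at 0.47) or without Control replicate 1 (Ctgf at 0.40) are not drawn.

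Ordered by level per length over all 6 libraries, Tgfbi came first at a mean of 199 FPKM, then Ctgf at 83.5 and Cyr61 at 73.6 FPKM. Amotl2 at 24.7 and Ajuba at 23.6 FPKM followed, and Skil, Smad7, Smad6 and Ankrd1 lay between 8.17 and 10.8 FPKM. Ctgf and Cyr61 overlapped in their SD, with 93.5 ± 20.6 and 82.6 ± 13.1 FPKM in TBZ and 73.5 ± 11.5 and 64.6 ± 5.92 FPKM in Control (SD, n = 3 each). Among the lowest genes, Smad7 and Smad6 exchanged places between the groups: Smad7 was above Smad6 in TBZ, at 9.52 ± 0.635 against 8.53 ± 0.120 FPKM, and below it in Control, at 7.84 ± 0.681 against 8.43 ± 0.138 FPKM (SD, n = 3 each). That order of levels was not tested.

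The 9 genes varied unequally between replicates. The within-group SD on the log2 scale was 0.27 for Ctgf and 0.19 for Cyr61, larger than for 98.3% and 94.8% of the 10760 tested genes with a mean of at least 10 CPM, whose median was 0.07. At the other end, Smad6 (0.02) and Ajuba (0.03) exceeded 2.27% and 5.90% of those genes. Amotl2 (0.06) and Tgfbi (0.06) were close to that median, and Skil (0.12), Smad7 (0.11) and Ankrd1 (0.09) were above it.

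TBZ replicate 1 held the highest value of 8 of the 9 genes, the exception being Tgfbi, and Control replicate 3 held the lowest value of 5. Relative to the Control mean of log2 CPM, the 5 YAP response genes averaged 0.36, 0.07 and 0.17 in TBZ replicates 1 to 3 and 0.05, 0.04 and -0.09 in Control replicates 1 to 3. TBZ replicate 2 was thus close to Control replicates 1 and 2. The 4 TGF-beta response genes averaged 0.11, 0.04 and 0.03 in TBZ and 0.06, 0.02 and -0.08 in Control, groups that overlap. The median of all tested genes moved by no more than 0.0035 in any library on that scale. Without TBZ replicate 1 the log2 fold change was 0.23 for Cyr61, 0.16 for Ctgf, 0.22 for Smad7 and 0.07 for Ankrd1, and without Control replicate 3 it was 0.28, 0.23, 0.23 and 0.13 for the same genes. Other fits gave larger values. The same genes were at 0.46, 0.47, 0.31 and 0.20 without TBZ replicate 2, and at 0.39, 0.40, 0.34 and 0.15 without Control replicate 1. With TBZ replicate 1 and Control replicate 3 both left out, a fit added after the values were seen, Cyr61 was at 0.16, Smad7 at 0.17, Amotl2 at 0.10 and Ctgf at 0.03. That fit leaves out the library highest for 8 of the 9 genes and the library lowest for 5, so smaller differences follow in part from the choice. The 5 YAP response genes stayed above 0 in that fit, with a median of 0.06, while the median of the TGF-beta response genes was -0.04, and edgeR called none of the 9.

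**Figure D4:**
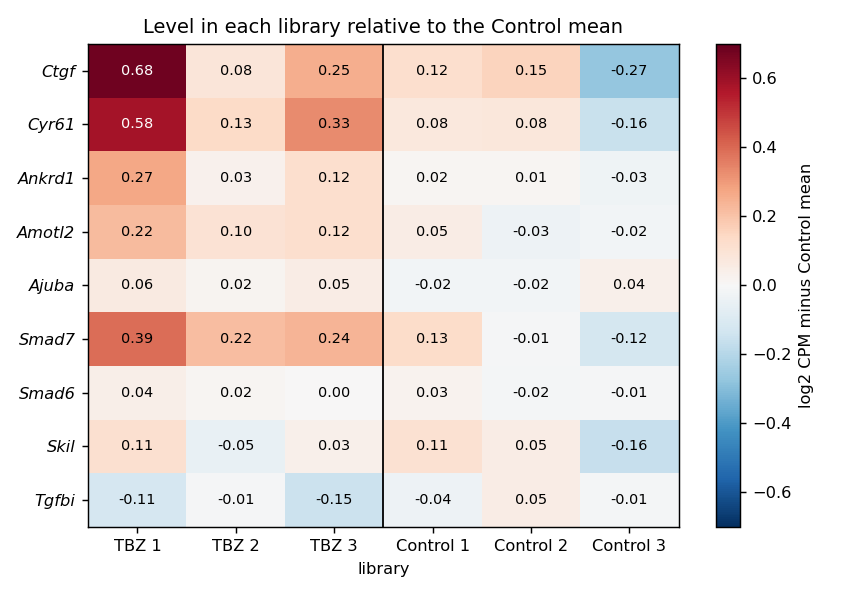
Log2 CPM of each gene in each library minus the Control mean of that gene, with TBZ libraries on the left of the line and Control libraries on the right. The darkest cells are Ctgf (0.68) and Cyr61 (0.58) in TBZ replicate 1, and Control replicate 3 is below 0 for all genes but Ajuba.

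TBZ replicate 1 was also the highest library for the summed markers of smooth muscle, endothelium, macrophages and striated muscle. For macrophages it was nearly level with Control replicate 2, at 285.3 against 284.7 CPM. The 8 smooth muscle markers, led by Acta2, summed to 2495, 1812 and 1829 CPM in TBZ replicates 1 to 3 and to 1952, 2022 and 1781 CPM in Control replicates 1 to 3, and 7 of the 8, all but Myocd, had a log2 fold change above 0 (two-sided exact permutation p = 0.8 for the sum). Without TBZ replicate 1 only 2 of the 8 were above 0, and without both TBZ replicate 1 and Control replicate 3 only 1 was. Epithelial markers were apart between the groups, with sums of 2238 to 2465 CPM in TBZ and 2028 to 2210 CPM in Control (two-sided exact permutation p = 0.1, the smallest that 3 against 3 libraries allow), and 8 of 10 lay above 0. Mesenchymal markers summed to 5723 to 6342 CPM in TBZ and 5557 to 6473 CPM in Control, with 4 of 10 above 0. Mesothelial markers summed to 321 to 406 CPM in TBZ and 367 to 423 CPM in Control, with 1 of 8 above 0. Endothelial markers summed to 431 to 465 CPM in TBZ and 429 to 432 CPM in Control (6 of 8 above 0), and macrophage markers to 228 to 285 CPM in TBZ and 226 to 285 CPM in Control (1 of 6 above 0). Neural crest and neuron markers summed to 112 to 114 CPM in TBZ and 98.8 to 135 CPM in Control (1 of 6 above 0), and the stomach and oesophagus markers to 80.2 to 127 CPM in TBZ and 110 to 188 CPM in Control (2 of 9 above 0). None of these markers was at 0 in every library, and Gkn2 was under 1 CPM in all. EdgeR called none of the marker genes, and DESeq2 called 2 epithelial markers and 1 stomach and oesophagus marker, all higher in TBZ. Without the filter on low counts edgeR called 4 epithelial markers and 1 stomach and oesophagus marker as higher, and 5 stomach and oesophagus, 1 mesothelial, 1 smooth muscle and 1 neural marker as lower in TBZ. Leaving out 1 library moved other counts above 0 as well: mesenchymal markers to 7 of 10 without Control replicate 2, mesothelial to 2 of 8 without Control replicate 3, and macrophage to 4, 3 and 2 of 6 without Control replicate 2, TBZ replicate 3 and TBZ replicate 2. Neural markers were at 3 and 2 of 6 without Control replicate 3 and TBZ replicate 2, and stomach and oesophagus markers at 4 of 10 without TBZ replicate 3. Epithelial markers were at 9 of 10 without TBZ replicate 1 or Control replicate 3, and at 7 of 10 without TBZ replicate 3 or Control replicate 2. With TBZ replicate 1 and Control replicate 3 both left out, 10 of 10 were above 0. Without Control replicate 1, edgeR called 1 epithelial marker. The part of these cell types in the values of the 9 response genes was not tested.

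None of the ligand and receptor genes that act before the response genes in the TGF-beta route passed the edgeR test. Of 11 genes for ligands and their activation, 4 had a log2 fold change above 0 and 7 below, with a median of -0.05. Without TBZ replicate 1 there was 1 of 11 above 0 (median -0.06), and without Control replicate 3 there were 6 (median 0.0031); without TBZ replicate 3 the median was -0.0018. The smallest p-values were those of Itgb8 (-0.34 ± 0.12 SE), an integrin subunit that frees latent TGF-beta, Furin (0.08 ± 0.04), which cleaves its precursor, and the ligand gene Tgfb2 (-0.15 ± 0.09), with edgeR adjusted p of 0.408, 0.584 and 0.626. Itgb8 stood at 10.9, 9.23 and 9.64 CPM in TBZ replicates 1 to 3 and at 11.8, 14.8 and 11.1 CPM in Control replicates 1 to 3, all TBZ values below all Control values. Of 5 receptor genes 2 were above 0 (median -0.03), and Eng, Acvrl1 and Tgfbr3, a coreceptor, an endothelial receptor kinase and betaglycan, had log2 fold changes of 0.08 ± 0.05, -0.09 ± 0.09 and -0.04 ± 0.06 (SE). Of these 5, 1 was above 0 without Control replicate 3, and 3 were without Control replicate 2 or TBZ replicate 3, with medians of 0.0099 and 0.0070. The value of Eng is uncertain because it overlaps Fpgs, which was at 44.3 CPM.

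Smad3, which carries the TGF-beta signal to DNA, had the smallest p of the SMADs and their partners. It stood at 147, 152 and 150.1 CPM in TBZ replicates 1 to 3 and at 131, 133 and 124 CPM in Control replicates 1 to 3, with no overlap. The log2 fold change was 0.21 ± 0.04 (SE), with an edgeR adjusted p of 0.124 and a DESeq2 adjusted p of 0.0146. Next came Smad1 of the BMP branch (0.06 ± 0.04 SE) and the corepressor gene Tgif2 (0.10 ± 0.09 SE). Of 12 tested genes in that list 5 were above 0 and 7 below, none passed with edgeR, and the median was -0.01. The median turned to 0.0011 without Control replicate 1 and to 0.01 without Control replicate 2, with 7 of 12 above 0 in each, and 3 were above 0 without TBZ replicate 2.

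Other TGF-beta target and matrix genes had 13 of 20 log2 fold changes above 0 and a median of 0.06. EdgeR called none of the 20. The count was 6 of 20 and the median -0.05 without TBZ replicate 1. Without both TBZ replicate 1 and Control replicate 3, a fit added after the values were seen, they were 5 of 20 and -0.07. Other fits gave larger values: 14 of 20 and 0.10 without TBZ replicate 2, and 15 of 20 and 0.11 without TBZ replicate 3. Tagln, a smooth muscle actin-binding protein gene, had a log2 fold change of 0.45 ± 0.19 (SE). Its 5.64 CPM are uncertain because it overlaps Pcsk7 at 32.3 CPM. Ltbp2, a microfibril gene, was at 0.29 ± 0.14 (SE).

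Of 20 Hippo kinases and upstream regulators, most of which restrain YAP, 13 were above 0 and 7 below. Their median was 0.04, and edgeR called none. The median was 0.0062 without Control replicate 3. It was -0.015, with 7 of 20 above 0, without both TBZ replicate 1 and Control replicate 3. It was larger without Control replicate 1, at 0.07, and 15 of 20 were above 0 without TBZ replicate 3 or Control replicate 2. Wwc1, which encodes the scaffold KIBRA that helps activate LATS kinases, stood at 127, 131 and 137 CPM in TBZ replicates 1 to 3 and at 119, 110.1 and 112 CPM in Control replicates 1 to 3. Its groups did not overlap, its log2 fold change was 0.21 ± 0.05 (SE), and its adjusted p was 0.156 with edgeR and 0.0264 with DESeq2. The kinase genes Stk4 (0.13 ± 0.05 SE) and Taok1 (0.11 ± 0.07 SE) followed, and Stk4 overlaps Tomm34, which was at 40.0 CPM.

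Of 8 tested genes for YAP, TAZ and their TEAD and VGLL partners 5 were above 0 and 3 below, with a median of 0.03. EdgeR called none of them. Without both TBZ replicate 1 and Control replicate 3, 2 of the 8 were above 0 and the median was -0.03. With TBZ replicate 3 left out, 7 of the 8 were above 0 and the median was 0.03. Yap1 and Wwtr1, which encode YAP and TAZ and are named after their values were seen, had log2 fold changes of 0.02 and -0.03. Vgll4, whose product competes with YAP for TEAD, stood at 83.1, 85.7 and 79.1 CPM in TBZ replicates 1 to 3 and at 88.0, 90.1 and 89.6 CPM in Control replicates 1 to 3, all TBZ values lower (log2 -0.11 ± 0.04 SE, edgeR adjusted p = 0.466). Tead1 and the TEAD cofactor gene Vgll3 had log2 fold changes of 0.12 ± 0.08 and 0.22 ± 0.17 (SE), with overlapping groups.

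Of 18 further YAP target genes 13 were above 0 and 5 below, with a median of 0.08. Without Control replicate 3 the median was 0.04, and without both that library and TBZ replicate 1 it was 0.02, with 10 above 0. It was 0.10 without TBZ replicate 3 and 0.09 without Control replicate 1 or Control replicate 2. Of the 18 genes, 15 were above 0 without TBZ replicate 3 or Control replicate 2. None of the 18 passed with edgeR, either at an adjusted p or at an unadjusted p under 0.05. The smallest p-values were those of the kinase gene Nuak2 (log2 0.21 ± 0.09 SE), of Fjx1, which encodes the mammalian four-jointed protein (0.14 ± 0.06), and of the membrane repair gene Myof (0.12 ± 0.06), with edgeR adjusted p from 0.523 to 0.551 and overlapping groups in each. Lats2, Ptpn14 and Tgfb2 stand in this list and in another one too.

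**Figure D5:**
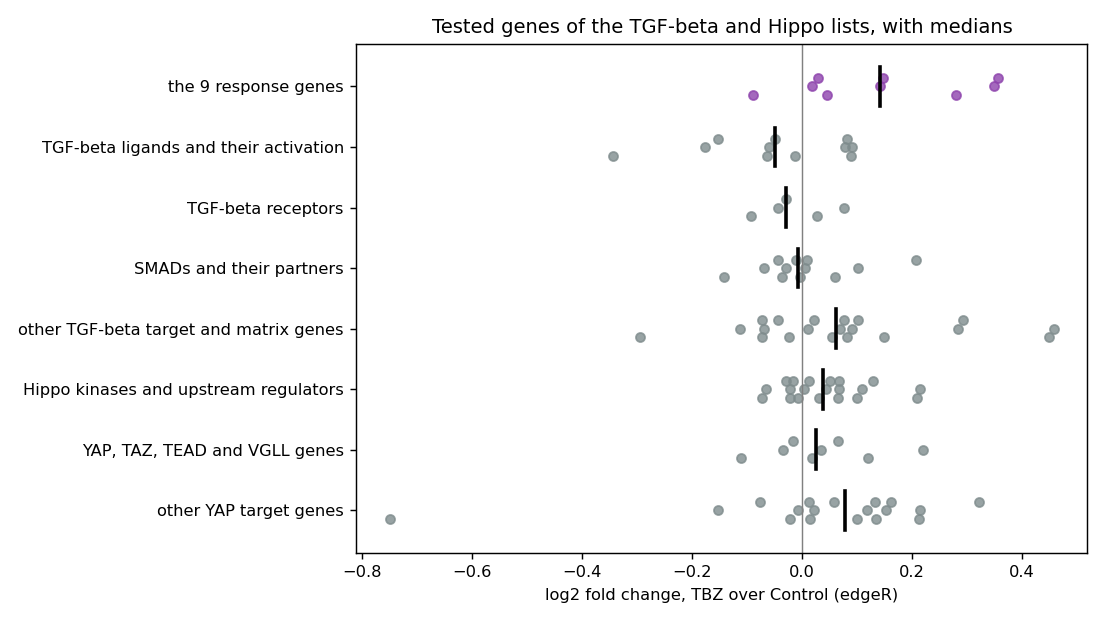
Log2 fold change of TBZ over Control (edgeR) for each tested gene of the 9 response genes and of 7 lists of the TGF-beta and Hippo routes; black bars mark medians. List medians run from -0.05 for ligands and their activation to 0.08 for other YAP target genes, and that of the 9 response genes is 0.14, with all 6 libraries.

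Relatives of the response genes had values on both sides of 0. Nov, the CCN family gene also called Ccn3, stood at 3.91, 4.44 and 3.08 CPM in TBZ replicates 1 to 3 and at 4.84, 6.19 and 6.73 CPM in Control replicates 1 to 3, all TBZ values lower. Its log2 fold change was -0.63 ± 0.17 (SE) with an edgeR adjusted p of 0.256, opposite in sign to that of Ctgf and Cyr61. The relatives of Ajuba, Limd1 and Wtip, were at 0.06 ± 0.04 and -0.07 ± 0.05 (SE). Of 11 tested relatives 6 were above 0 and 5 below, the median was 0.01, and edgeR called none. Limd1, Wtip, Amot, Amotl1, Ski and Postn are among these relatives and were already counted in the lists above. Without TBZ replicate 1 or without Control replicate 3 there were 4 above 0 and medians of -0.04 and -0.06, and without both there were 2. The median was 0.04 without TBZ replicate 2 or without TBZ replicate 3, with 6 above 0 in each. With Control replicate 2 left out there were 7 above 0.

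Likeness of pattern was measured as the root mean square difference in centred log2 CPM over the 6 libraries, among 12101 protein-coding genes with a mean of at least 1 FPKM. Klf4, a transcription factor gene, was nearest to the mean pattern of the YAP response genes (0.03), followed by the elongation factor gene Ell2 (0.03) and by Aif1l (0.04). Klf4 stood at 31.2, 25.4 and 27.2 CPM in TBZ replicates 1 to 3 and at 25.0, 25.5 and 24.0 CPM in Control replicates 1 to 3, with TBZ replicate 1 highest and Control replicate 3 lowest. The genes nearest to the mean pattern of the TGF-beta response genes, which was flatter, were Ppp6c (0.0057), Cdc42bpb (0.0088) and Vhl (0.012). None of these 6 genes passed the edgeR test. The flatter mean joins unlike patterns. Relative to the Control mean of log2 CPM, Smad7 was at 0.39, 0.22 and 0.24 in TBZ replicates 1 to 3. Tgfbi was at -0.11, -0.0059 and -0.15 in the same libraries. The likeness is a description over 6 libraries, chosen as the closest of all genes compared.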

How the data were processed

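Poly-A RNA from 3 TBZ and 3 Control libraries was sequenced. Per the submitters' processing notes, STAR, HTSeq and mm10 were used; versions, annotation and strand setting are not given in the sources used here. Per the file headers, the deposited table holds a raw read count and an FPKM value per library, both made by the authors. It also holds group means of normalized counts (a signal value), a log2 fold change, a p-value and an adjusted p-value, made by the authors with no tool named.

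Counts were tested as deposited with edgeR 4.0.16 in R 4.3.3 (TMM scaling, filterByExpr, quasi-likelihood test, Benjamini-Hochberg adjustment over all tested genes), and an adjusted p under 0.05 counted as called. Each SE was obtained by dividing the size of the log2 value by the root of its F statistic, and 95% intervals use it. The biological coefficient of variation was 8.3%. The alternatives were DESeq2 1.42.0 with its default filtering, RLE scaling, no filter, limma 3.58.1 on log2(FPKM + 0.5) and log2(FPKM + 0.1), the replicate number as a block, and leaving out libraries. Marker sums were compared by two-sided exact permutation.

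The 9 genes and the lists (8 lists of related genes with 99 symbols, 96 tested, and 9 marker lists) were chosen with earlier results of these data known. The rule named the 9 genes and the 3 genes of each related list with the smallest p. It also named the 3 genes nearest to the mean pattern of each arm. One gene that it names is not reported here; Pdx1, Acta2 and the marker genes are named from their lists. Promoters came from the RefSeq table for GRCm38.p6.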

Additional observations from a re-analysis of the deposited data

How the results depend on the processing

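The count of called genes over the whole table was 34 with edgeR, 222 with DESeq2, 445 with no filter, 13 and 14 with limma on log2(FPKM + 0.5) and log2(FPKM + 0.1), 5 with the replicate block and 12 without both TBZ replicate 1 and Control replicate 3; leaving out 1 library gave 5 to 36. Of the 9 response genes 0 were called with edgeR, 1 with DESeq2 (Cyr61) and 3 with no filter (Cyr61, Ctgf and Smad7, adjusted p = 0.000746, 0.0112 and 0.0148), where that fit called 1.42% of 31250 genes; the cause was not tested. The other alternatives, leaving out each library included, called 0. Of the related genes 0 were called with edgeR, 2 with DESeq2 (Smad3 and Wwc1) and 4 with no filter (among them Smad3 and Wwc1, higher, and Nov, lower). Skil turned to -0.015 without TBZ replicate 1, -0.045 without Control replicate 3 and -0.090 without both (a fit added after seeing the data), with 0.081 its highest value when 1 library was left out, and the other 8 genes kept their sign in all 13 alternatives. Same-numbered libraries did not deviate together (correlations of 0.0017, -0.15 and -0.08 for numbers 1 to 3), so the replicate numbers were not read as pairs. With 3 libraries per group, a difference of a gene as variable as Ctgf has a wide interval.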
